A study of Mus musculus with 6 samples.

Results

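The regions described here are stretches of mouse autosomal DNA that were highly methylated in bone marrow before culture and after 4 days of culture, and less methylated after 7 days. They were chosen by their measured levels. Each region is a stretch of 3 or more listed cytosines on chromosomes 1 to 19 whose neighbours lie no more than 100 bp apart. It had to hold at least 15 reads, summed over its cytosines, in each of the 6 samples. Its level, the percentage of its summed reads that were methylated, had to be at least 80% in each of the 4 day 0 and day 4 samples and at most 75% in both day 7 samples. Of 69246 regions on all chromosomes, 43426 were autosomal with enough reads, 7351 of these met the day 0 and day 4 limit, and 40 met the whole rule. These 40 are called the member regions, and the 7351 the early-methylated regions. The levels of all 6 samples thus chose the members, and are given below as a description.

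The assay was reduced representation bisulfite sequencing of C57BL/6J bone marrow, all samples labelled male. The method cuts DNA with MspI or TaqI and sequences the ends of the fragments after bisulfite, which converts unmethylated cytosines and leaves methylated ones. Day 0 (replicates 2 and 3) was uncultured marrow. Day 4 (replicates 1 and 2) and day 7 (replicates 1 and 4) were marrow cultured with 20% supernatant containing Flt3L, a cytokine that drives growth of dendritic cells. The labels call the day 4 cells common myeloid progenitors and the day 7 cells bone marrow derived dendritic cells, but unsorted live cells were used. Their identity could not be checked against markers, because the data hold no expression. In such unsorted cultures a change of level within cells and a change in the mix of cells cannot be told apart. Nothing in the labels tells whether replicates are separate mice, so p-values rest on the spread between these libraries alone, which may be technical.

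Most CpG cytosines of mammalian DNA outside CpG islands are methylated, and DNMT1 copies this state onto the new strand when cells divide. Methylation is lost where copying fails over divisions or where TET enzymes oxidise the mark. In maturing myeloid cells, loss of methylation is known mainly from enhancers and from promoters of genes that become active. The design compares such gains and losses across 3 stages of dendritic cell culture.

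The libraries differed in ways that touch every value below. Reads at listed cytosines numbered 3641141 in day 7 replicate 4 and 6736556 to 10242334 in the other 5 samples. Both day 7 libraries stood apart from their label. Mean depth of X cytosines over mean depth of autosomal cytosines gave ratios of 1.01 and 1.07, against 0.650 to 0.688 in the 4 others. Their reads on unplaced Y sequence were 37.6 and 35.8 per 1000000 autosomal reads, against 56.2 to 71.1. The Y reads were thus lower but not absent. The X ratios go against the label of male for the day 7 libraries. Whether they came from female mice, or from other animals than the earlier libraries, was not tested, and a difference between stages cannot be told apart from one between such animals. All member regions are autosomal. Since the rule needs the day 7 samples, no value without both can be given.

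Averaged over the 40 member regions, the level was 87.4% ± 0.230 before culture, 88.5% ± 0.335 after 4 days and 69.6% ± 0.707 after 7 days (SD, n = 2 per group). The sample means were 87.3% and 87.6% before culture, 88.3% and 88.8% after 4 days, and 70.1% and 69.1% in day 7 replicates 1 and 4. Both day 7 samples lay below all others at every member, as the rule requires. Over the 7351 early-methylated regions the means were 89.3% ± 0.574, 90.8% ± 0.525 and 89.1% ± 1.33 (SD, n = 2 each), so the background of the members had no such step. Members sat lower than this background before day 7 as well. Their mean level over the 4 early samples had a median of 87.1% against 89.98%, and it reached 90% in 27.5% of members against 49.8%.

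**Figure D1:**
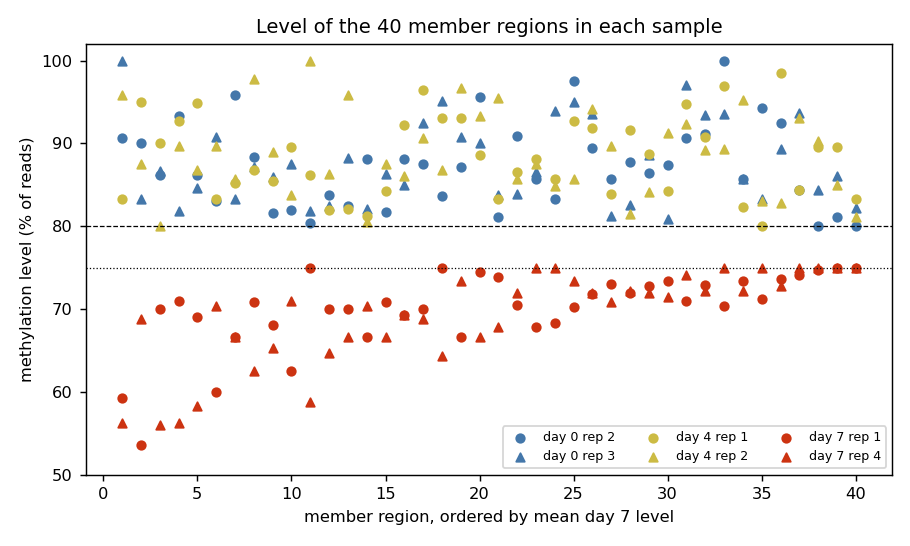
Methylation level (percent of reads) of each of the 40 member regions in each sample, ordered by mean day 7 level, with the limits of 80% (dashed) and 75% (dotted). Day 7 levels (red) mostly crowd under the upper limit, and only 10 members are at or below 70% in both day 7 samples.

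Most members lay close to the limits. The gap between the lowest of the 4 early samples and the higher day 7 sample ran from 5 to 24.1 points with a median of 11.2. It reached 10 points in 26 members, 15 points in 9 and 20 points in 1. In 10 members a day 7 sample stood at exactly 75%, and in 4 an early sample stood at exactly 80%. Day 7 replicate 1 reached down to 53.6% and replicate 4 to 56.0%, so no member became unmethylated. The 2 day 7 samples differed by a median of 3.22 points and at most 16.2, with replicate 4 the lower in 20 members, the higher in 16 and equal in 4. Regions just outside the limits looked alike. The region chr8:92828148-92828206 missed the day 7 limit with 75.4% and 72.7%, while chr1:3270484-3270510 met it with 75% in both. The region chr8:94730422-94730465 missed the early limit at 79.5% in day 4 replicate 1, while chr3:5950176-5950265 met it at 80% in that sample. The region chr1:173656614-173656694 stood at 65.5% and 64.3% at day 7 but missed the read limit with 14 reads in replicate 4.

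The number of members lay above the numbers that binomial noise on summed reads gives, and below those that also hold the spread between replicates. If each of the 43426 regions had 1 level, pooled over its 6 samples, and only the drawing of reads moved the samples apart, 31.4 regions would meet the rule at their own read numbers (the sum of exact binomial probabilities). The observed 40 are 1.27 times that. Taking the level from the day 0 and day 4 samples alone gave 31.0. Replicates of a group differ by more than reads drawn at random, with a chi-square per degree of freedom of 1.81, 1.72 and 1.89 for days 0, 4 and 7. With that extra spread, estimated from the 2 samples of each group over all 43426 regions, 51.4 regions would meet the rule, and with the spread of the 18089 regions pooled at 70% to 95%, 69.6 would. The observed number is then 0.778 and 0.574 times the expected one. No test was run on these differences. With 1 day 7 sample in the rule, the read limit leaves out the other, so the 2 replicates are counted over different regions. With replicate 1 alone 338 of 63926 regions met the rule, where binomial noise gives 329 and the 2 estimates of extra spread give 526 and 694. With replicate 4 alone 826 of 43608 met it, more than each of the 3 estimates, which were 520, 571 and 621. On the same 7351 early-methylated regions, 182 (2.48%) stood at or below 75% in replicate 1 and 825 (11.2%) in replicate 4, and the 40 members in both. The product of the 2 shares gives 20.4 regions. That product takes all regions as alike in level and depth, so nothing is read from its difference from 40. Replicate 4 is the shallowest library. Its own read numbers enter the 3 estimates, and the cause of the excess of its 826 regions over them was not tested.

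Neighbouring cytosines are read by the same DNA fragments, which a count of summed reads ignores. In 16 members every cytosine had the same depth in day 7 replicate 4, with a median of 5 reads and a range of 2 to 7. For these members the 15 or more summed reads would come down to so few fragments if each read spanned the region. Over all 40 members the median depth per cytosine was 5.17 in replicate 4 and 9 in replicate 1. It was under 10 reads in 39 and 22 members. If the reads of a region are divided by its number of cytosines, as though all cytosines of a fragment always shared 1 state, the number expected by counting noise becomes 197. That value takes the cytosines of a region as wholly dependent, and the binomial value above takes them as independent.

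Members were found mainly where reads were few. Of the 2570 early-methylated regions whose shallowest sample held 15 to 19 reads, 21 were members, or 0.817%, where binomial noise gives 17.5 regions. With 20 to 29 reads there were 17 members among 2667, or 0.637%, and 11.1 expected. With 30 to 49 reads there were 0 members among 1628, and 2.61 were expected. With 50 or more reads there were 2 among 486, where the binomial number is 0.179 and the numbers with extra spread are 0.802 and 1.57. The shallowest sample was day 7 replicate 4 in 27 of the 40. The median of the shallowest sample was 18 reads for members and 22 for early-methylated regions.

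**Figure D2:**
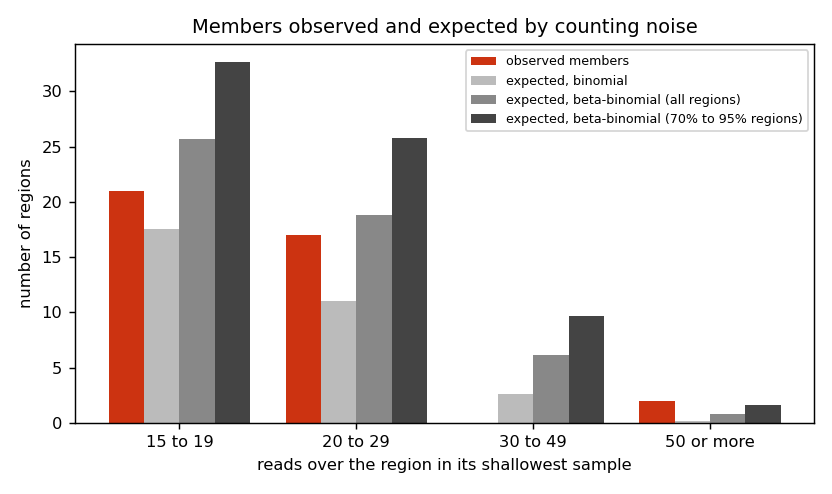
Number of regions that met the rule (red) and number expected (greys), by the reads in a region's shallowest sample. The expected numbers hold counting noise alone (binomial) or also 2 estimates of the spread between replicates (beta-binomial). Observed numbers lie between the estimates at 15 to 29 reads, below them at 30 to 49 reads (0 observed) and above them at 50 or more (2 observed).

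Stricter level limits left few regions, and more than binomial noise gives. At most 70% in both day 7 samples was met by 10 regions, against 3.19 expected by binomial noise and 7.99 and 14.4 with the 2 estimates of extra spread. At most 60% was met by 1 region, against 0.0410, 0.194 and 0.584. At least 90% in all 4 early samples, with the day 7 limit kept, was met by 1 region, against 0.0910, 0.455 and 1.32. Each of these observed numbers lies within the range of its estimates or, at 60%, above all of them. A stricter read limit went the other way. At least 30 reads in each sample left 2 regions, against 2.79 by binomial noise and 6.96 and 11.2 with extra spread.

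Single regions were tested with edgeR on methylated and unmethylated counts of 56105 regions, with Benjamini-Hochberg adjustment over all of them. A call needed an adjusted p below 0.05 and a difference of at least 20 points between group means. Against day 0, 1 of the 40 members was called lower at day 7, where 0.0145% of 55146 autosomal regions were. Against day 4, 0 members were called, where 0.0544% of autosomal regions were, and between day 4 and day 0 also 0, with 0% of autosomal regions called lower. At an unadjusted p below 0.05, 23 members were lower in each day 7 comparison, where 1.2% of autosomal regions were lower against day 0 and 2.35% against day 4, and 0 members differed in either direction between day 4 and day 0, where 6.59% of autosomal regions did. The rule chose on these contrasts and the 2 day 7 comparisons share their day 7 samples, so nothing is read from these counts. The fit and its adjustment held regions of all chromosomes. With autosomes fitted alone, 0 members were called lower at day 7, where 2 of 55146 autosomal regions were against day 0 and 3 against day 4. Other tests were run on the same 56105 regions. The quasi-likelihood test of edgeR called 0 members lower in each comparison, where it called 0.00363% of autosomal regions against day 0, 0.00544% against day 4, and 0% between day 4 and day 0. In limma the call was 0 members and 0% of autosomal regions in all 3 comparisons. Fisher's exact test on reads pooled by group, which ignores the spread between replicates, called 6 members lower against day 0, where it called 0.151% of autosomal regions, and 9 against day 4, where it called 0.259%. Between day 4 and day 0 it called 0 members, while 0.176% of the 55146 autosomal regions were called lower and 254 of them higher.

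The called member was chr5:131916467-131916486, with 4 cytosines in 20 bp. Its read number kept it out of the rule for named regions, so it was picked with its values known. Before culture it stood at 90.6% and 100% (29 of 32 and 20 of 20 reads). After 4 days it stood at 83.3% and 95.8% (40 of 48 and 23 of 24), and after 7 days at 59.3% and 56.2% (16 of 27 and 9 of 16). Its gap of 24.1 points was the largest of the 40 and its day 7 samples were the only pair with both at or below 60%. Group means were 95.3% ± 6.63, 89.6% ± 8.84 and 57.8% ± 2.13 (SD, n = 2 each) in order of time. The day 7 mean less the day 0 mean was -37.6 points (adjusted p = 0.0397, edgeR), and less the day 4 mean -31.8 points (adjusted p = 0.192, edgeR). The rule chose the region on these same levels, so both p-values are a description and no evidence of a change. The exact 95% binomial intervals of the day 7 samples were 38.8% to 77.6% and 29.9% to 80.2%. They cover counting error only, under the assumption of independent reads. Each cytosine had 7, 7, 7 and 6 reads in replicate 1 and 4 reads in replicate 4, and the first 3 cytosines had identical levels of 57.1% and of 50% in these samples. The call was lost in the quasi-likelihood test (adjusted p = 0.283), in limma (0.185), with autosomes fitted alone (0.106) and without either day 0 or either day 7 sample (0.0813 to 0.338).

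The deepest member, chr11:3050643-3050858 with 9 cytosines in 216 bp, had the largest difference at a single cytosine of all 40, at 83.6 points in pooled reads. The region stood at 91.1%, 93.4%, 90.7% and 89.3% in the early samples, in order of time and replicate, and at 72.96% and 72.2% on day 7. It was the only member whose 6 intervals separated the day 7 samples from the others, at 70.6% to 75.2% and 67.7% to 76.4% at day 7. At position 3050783, the fifth cytosine, the early samples stood at 87.5%, 87.5%, 90.9% and 92.3%, and the day 7 samples at 5.24% (14 of 267 reads) and 7.69% (5 of 65). The cytosine 2 bp before it stood at 93.7% and 90.8% at day 7. Without position 3050783 the region stood at 91.7%, 94.4%, 90.7% and 88.9% in the early samples and at 88.4% and 83.9% at day 7, and would not meet the rule. Reads moved with this result. Relative to the median early-methylated region of the same library, the region had 1.89 to 2.47 times the reads in the early samples and 24.3 and 17.7 times at day 7. The part of this depth in the level was not tested. Whether the day 7 reads and the earlier ones come from the same DNA was not tested either. In edgeR its day 7 level less that of day 0 was -19.7 points (adjusted p = 0.0504) and less that of day 4 -17.4 points (adjusted p = 0.162), and neither was called.

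The member with the most cytosines was chr5:108150049-108150236, 10 cytosines in 188 bp. It was also the only member besides the chromosome 11 region with more than 50 reads in every sample. It stood at 81.7%, 85.9%, 85.4% and 89.0% in the early samples and at 68.1% and 65.3% on day 7, over 64 to 218 reads. Both day 7 upper bounds, 75.3% and 76.1%, were below 80%, which held for this and the chromosome 11 region alone among the 40. All 10 cytosines were lower at day 7 in pooled reads, by 1.47 to 34.0 points, and 7 of them by at least 10. In single samples the difference was more local. At 0, 28, 33, 128 and 187 bp, a day 7 sample lay within or above the early range. Cytosines from 134 to 176 bp after the first stood at 61.1% to 77.8% and 50% to 62.5% at day 7, against 79.2% to 100% in the early samples. The first cytosine was at 46.2% to 66.7% in the early samples already. In edgeR its day 7 level less that of day 0 was -17.1 points (adjusted p = 0.337) and less that of day 4 -20.5 points (adjusted p = 0.198), and neither was called.

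**Figure D3:**
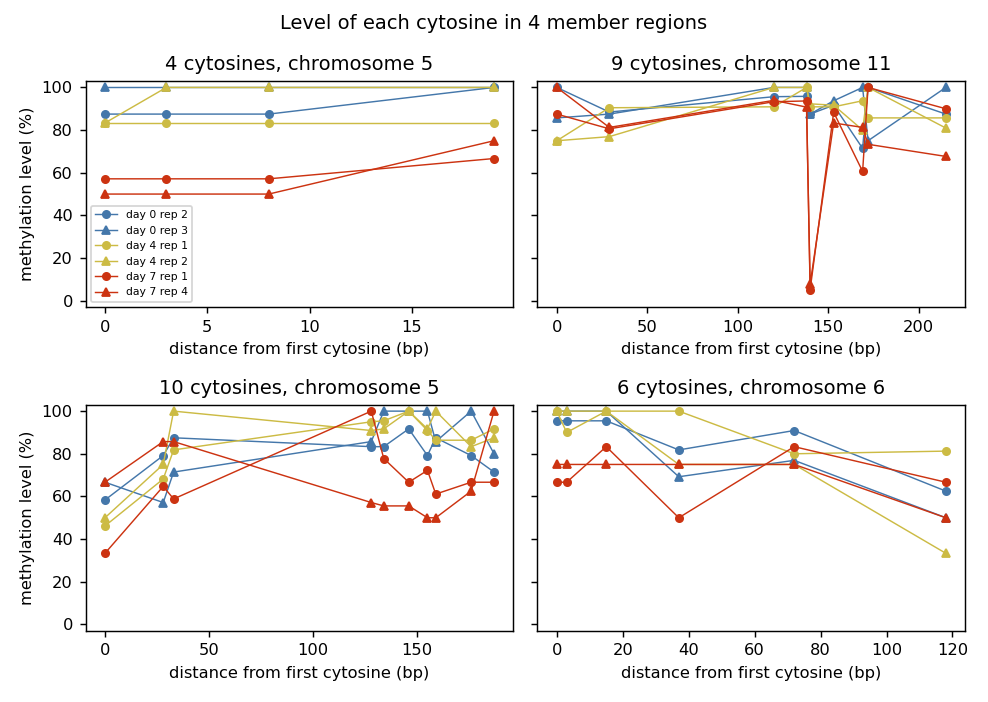
Level of each cytosine (percent of its reads) against distance from the first cytosine for 4 member regions, 1 line per sample. Both day 7 lines lie below the others along the 4 cytosines of the called chromosome 5 region, drop at 1 cytosine of the chromosome 11 region, run lowest between 134 and 176 bp in the 10-cytosine region, and lie below the others up to 15 bp in the chromosome 6 region, where at least 1 of them overlaps the others at 37, 72 and 118 bp.

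Other members with large gaps rested on fewer reads. Under the rule for named regions, which took the 10 largest gaps among members of 20 or more reads in every sample, the largest was chr2:26311249-26311350 with 3 cytosines. It stood at 90.6%, 97.1%, 94.7% and 92.3% in the early samples and at 70.97% and 74.1% on day 7, over 26 to 38 reads. At chr6:113231226-113231344, 6 cytosines had means of 86.5% ± 2.24, 89.1% ± 4.38 and 69.2% in both day 7 samples (SD, n = 2), and at its last 3 cytosines at least 1 day 7 sample lay within the early range. At chr12:50654565-50654607, 5 cytosines had means of 85.4% ± 1.09, 90.9% ± 5.68 and 63.7% ± 7.58 (SD, n = 2 each). All 5 cytosines were lower there in pooled reads, by 20.2 to 29.5 points. At the first, both day 7 samples (33.3% and 50%) lay within the early range of 33.3% to 80%. At chr16:20526226-20526281 the early samples stood at 100%, 93.5%, 96.9% and 89.3% and the day 7 samples at 70.4% and 75%. The remaining gaps of this rule, from 10.98 to 12.7 points, were at chr4:5283485-5283567, chr5:149600206-149600237, chr8:115075241-115075366 and chr7:143194290-143194356, with day 7 means of 65.2% to 72.4%. None of these regions was called, with adjusted p of 0.0854 to 0.489 over both edgeR comparisons.

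The 5 members named for their size or depth alone had smaller gaps, of 5 to 9.38 points. At chr3:5950176-5950265, 8 cytosines stood at 94.2%, 83.3%, 80% and 83.0% in the early samples and 71.2% and 75% on day 7, and 1 of the 8 was higher at day 7 (early less day 7: -15.5 points). At chr5:143549081-143549188, 7 cytosines had means of 84.2% ± 4.62, 87.8% ± 5.02 and 72.4% ± 1.35. At chr2:169546510-169546553 the means were 90.9% ± 2.22, 90.6% ± 11.1 and 73.2% ± 0.677, at chr2:168087983-168088031 they were 89.4% ± 8.11, 89.9% ± 4.45 and 69.6% ± 7.58, and at chr4:152099277-152099330 they were 89.0% ± 6.54, 88.7% ± 6.17 and 74.5% ± 0.655 (SD, n = 2 each). The 2 samples of day 4 stood at 98.4% and 82.8% at the first of these.

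Within members, the lower day 7 level was mostly shared by the cytosines but often hung on 1 of them for the limits. The 40 regions hold 173 cytosines, of which 164 were lower at day 7 in reads pooled over samples and 9 were not. In 31 members every cytosine was lower, and in 15 every cytosine was lower by at least 10 points. Lower cytosines are what a low region sum requires, so these counts are a description. Without the cytosine of the largest difference, 13 members still met both level limits and 27 did not. Beside the chromosome 11 region, the largest single differences were 47.9 points in chr11:115969573-115969612 (93.3% to 45.5% in pooled reads) and 46.7 points in chr11:116008119-116008136 (92.1% to 45.5%). Both rest on few day 7 reads. In replicates 1 and 4, methylated reads were 4 of 6 and 1 of 5 at the former, and 3 of 7 and 2 of 4 at the latter. The latter met the limits without that cytosine and the former did not. These 2 were the closest members to each other, at 38546 bp.

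Cytosines beside the members were not used by the rule and allow a test. Listed cytosines within 2000 bp of either end gave 10 or more reads per sample for 19 members, with 123 cytosines in all and a median of 6 per flank. The mean flank level was 71.1% and 67.4% before culture, 71.1% and 72.1% after 4 days, and 74.1% and 67.3% in day 7 replicates 1 and 4. Day 7 samples thus took both the highest and the lowest value of the 6. The day 7 mean differed from that of the 4 others by 0.300 points (two-sided exact permutation p = 1.00, for which 0.0667 is the lowest possible with 2 against 4 samples). Against day 0 it was higher by 1.47 points and against day 4 lower, by -0.869 points when day 4 is subtracted from day 7 (exact permutation p = 1.00 each, with 0.333 the smallest possible and 1.00 after adjustment over the 3 comparisons). The sign of the first difference depended on the setting, from -3.11 points without day 7 replicate 1 to 3.71 without replicate 4. Flanks of 2967 early-methylated regions differed by 1.30 points between day 7 and the other days (exact permutation p = 0.333).

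Member by member, the flanks followed no direction. Of the 19, 9 were lower and 10 higher at day 7 than the mean of the 4 others, from -7.41 to 8.98 points. Both day 7 samples lay below all others in 1 flank and above all others in 2. These orders occurred in 5.93% and 11.4% of the flanks of early-methylated regions. In edgeR on 25522 flanks, 0 of the 19 were called lower at day 7 against day 0 or day 4, where 0.0235% and 0.047% of all flanks were, and the quasi-likelihood test also called 0. At an unadjusted p below 0.05 there were 0 lower member flanks against day 0 and 1 against day 4, where 0.968% and 1.72% of all flanks were lower. The 1 was that of chr5:143549081-143549188, with day 7 less day 4 at -12.2 points (adjusted p = 0.131, edgeR). The flank of the called chromosome 5 region stood at 95.8%, 100%, 69.4% and 94.4% in the early samples and at 95.2% and 75% at day 7, on 12 to 36 reads, so its day 7 samples lay inside the range of the others.

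**Figure D4:**
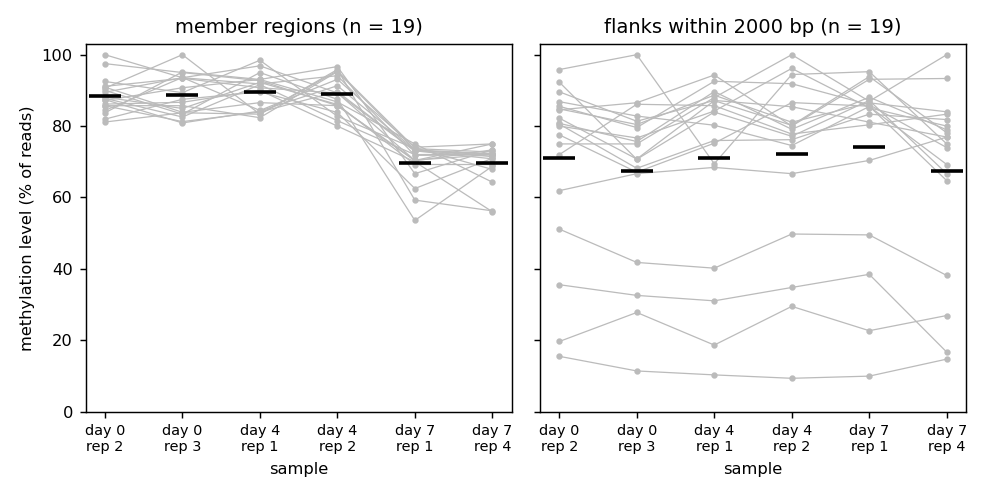
Level (percent of reads) in each sample of the 19 member regions with covered flanks (left) and of their flanks within 2000 bp (right), 1 grey line per region and a black bar at the mean. The members step down at day 7 as the rule requires, while the flank means stay between 67.3% and 74.1% in all samples.

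The members were short and scattered. They held a median of 4 cytosines over 54.5 bp, against 5 over 100 bp among early-methylated regions, and 47.5% spanned under 50 bp against 29.1%. Members lay on 16 of the 19 autosomes, with 6 each on chromosomes 5 and 11, 5 on chromosome 2 and 0 on chromosomes 13, 17 and 18. As a share of early-methylated regions this came to 1.23% on chromosome 11, 1.07% on chromosome 2 and 1.03% on chromosome 5. Another region lay within 2000 bp of 30% of members and of 32.0% of early-methylated regions. Genes, exons and sequence at these mm9 positions were not analysed here.

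The share of reads that fell on members moved with the chromosome 11 region. Members took 0.418%, 0.369%, 0.423% and 0.397% of the reads of early-methylated regions in the 4 early samples and 0.600% and 0.623% at day 7 (two-sided exact permutation p = 0.0667, the smallest possible). Without chr11:3050643-3050858 the day 7 shares were 0.321% and 0.424% against 0.348% to 0.400% (exact permutation p = 0.933). Relative depth at day 7 over that in the other samples had a median of 1.00 over members and over early-methylated regions alike. It was above 2 in 1 member, the chromosome 11 region at 9.74, and lowest at 0.480 in chr10:122315312-122315367.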

How the data were processed

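Per the submitters' processing notes, the tools were Bismark and Bowtie2 and the build mm9. How reads were trimmed, deduplicated or assigned to strands, and with which versions, was not given in the sources used here. Per cytosine, the authors' deposited table of 652716 cytosines gives a methylated fraction and the counts of unmethylated and methylated reads per sample. The deposited counts were used as they stand, and the fraction column was not needed. With Python 3.11.15 and scipy 1.17.1, counts were summed over regions, the rule was applied, and expected numbers were computed from binomial and beta-binomial probabilities. Regions of 10 or more reads in every sample entered edgeR 4.0.16 (R 4.3.3): all 6 samples in 1 model, a term per sample, a methylation term per group, dispersion without trend, likelihood ratio test. Flanks of autosomal regions with at least 15 reads were fitted likewise. limma 3.58.1 used log2 ratios, computed from the deposited counts with a pseudocount of 0.5. Both scripts were tested on simulated data. Named regions were the 10 largest gaps at 20 or more reads, the 5 with most cytosines, the 5 with most reads in the shallowest sample, and any called in both day 7 comparisons (none) or with a called flank (none). Members, lists and tests were chosen with earlier results of these data known. Gene annotation of mm9 was not used here. Intervals cover counting error only and take reads as independent, which PCR copies of 1 molecule would not be.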

Additional observations from a re-analysis of the deposited data

How the results depend on the processing

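The number of member regions and the number expected by binomial counting noise were 67 and 53.5 at a minimum of 10 reads per sample, 2 and 2.79 at 30, 10 and 3.19 with a day 7 limit of 70%, 1 and 0.0410 with 60%, 1 and 0.0910 with an early limit of 90%, and 12 and 7.54 with at least 5 cytosines. At a minimum of 10 reads per cytosine and sample, chosen after the data were seen, they were 1 and 0.0958. With the rule applied to 5 samples they ran from 52 to 826 and from 50.4 to 520, as fewer samples have to pass. Day 7 replicate 1 left out gave the highest. Expected numbers under other noise were 51.4 (beta-binomial), and, chosen after the data were seen, 69.6 (spread of regions at 70% to 95%) and 197 (reads divided by cytosines). With neighbours up to 50 bp apart they were 41 and 26.1 and with 200 bp 41 and 43.2, so the observed number was above the binomial one in the former and below it in the latter. The deepest cytosines left out and mean fractions kept the number of members within 1.5 times.

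Members called lower at day 7 against day 0 numbered 0 in the quasi-likelihood test (0.00363% of autosomal regions), in limma (0%) and with autosomes alone (2 of 55146 regions). With at least 20 reads they also numbered 0, where 4 of 31328 autosomal regions were called and the called region is not tested. In Fisher's exact test they numbered 6 (0.151% of autosomal regions). Against day 4 they numbered 9 in Fisher's exact test (0.259% of autosomal regions) and 0 with at least 20 reads, where 19 of 31328 autosomal regions were called. Between day 4 and day 0 the count was 0 in all settings run on all 6 samples, where Fisher's exact test called 0.176% of autosomal regions lower. Called member flanks also numbered 0. Of all 22114 flanks of 1000 bp, 3 were called lower against day 0 and 6 against day 4, and of 31165 flanks of 5000 bp, 8 and 11. The mean flank difference turned to -0.0828 points at 1000 bp, to -0.249 with at least 20 flank reads, to -0.706 without day 0 replicate 3 and to -3.11 without day 7 replicate 1, and reached 3.71 without day 7 replicate 4. The read share difference, 0.210 points, was 0.199 to 0.222 with a sample left out and turned to -0.00465 without the deepest member and was 0.000499 without the 0.1% deepest cytosines. The cause was not tested.

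No paired analysis was possible because no 2 groups share more than 1 replicate number. Depth in day 7 replicate 4 limits most values: the exact 95% interval of a member's level there had a median width of 40.8 points, and its upper bound lay below 80% in 4 members.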
